A study of Mus musculus with 4 samples.

Results

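The colony-stimulating factors and their receptors were followed as 8 genes, chosen by their symbols as the genes of the M-CSF, GM-CSF and G-CSF systems, out of 55536 annotated genes in the deposited tables. They are 5 receptor genes (Csf1r, Csf2ra, Csf2rb, Csf2rb2 and Csf3r) and 3 ligand genes (Csf1, Csf2 and Csf3), and all 8 were found. Their RNA was measured in the cytosolic fraction of bone marrow-derived macrophages from C57BL/6J mice, 15 min after lipid A was added at 100 ng/ml. Lipid A is the part of bacterial lipopolysaccharide that Toll-like receptor 4 recognises, and these macrophages are primary cells grown from marrow. The 4 libraries, of ribosome-depleted total RNA, form 1 group of biological replicates that share 1 donor record. Whether each came from its own animal or culture is not said in the labels. The p-values below therefore weigh differences against the spread of these libraries alone, and that spread may be technical. No unstimulated library was analysed here, so every value below is a level in stimulated cells and none is a response to lipid A.

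M-CSF, the product of Csf1, signals through Csf1r, a receptor tyrosine kinase that macrophages need for survival and growth, and it is the factor usually used to grow macrophages from marrow. GM-CSF, the product of Csf2, binds an alpha chain encoded by Csf2ra, which pairs with the common beta chain encoded by Csf2rb. Mice carry a further beta chain gene, Csf2rb2, whose product serves the interleukin 3 receptor. G-CSF, the product of Csf3, acts through Csf3r, a receptor known best from neutrophils and their precursors.

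Replicate 1 stood apart from the other 3 libraries. It was also the shallowest, with 30088678 expected counts on annotated genes against 40282297 to 47961117 in the others. By edgeR's quasi-likelihood test, with p-values adjusted after Benjamini and Hochberg, 3096 of 14041 tested genes (22.0%) differed between replicate 1 and the other 3. For replicates 2, 3 and 4 the same test called 0 genes each, with 277, 135 and 104 genes at an unadjusted p under 0.05, and DESeq2 called 8, 3 and 17. Those contrasts keep replicate 1 among the reference libraries, which widens the spread, so they cannot show that replicates 2, 3 and 4 were alike. Because replicate 1 stood apart, results that rest on it are given with and without it. All 10 macrophage markers averaged 1 TPM or more (transcripts scaled for length and library total), and their sum lay between 5844 and 9376 TPM in a library. Neutrophil markers reached that level for 4 of 10 (S100a9, S100a8, Mmp8 and Ngp), with sums of 31.2 to 45.4 TPM, and dendritic markers for 2 of 8 (Itgax and Batf3), with sums of 2.99 to 6.34. Mast cell, T and NK, and stromal markers reached it for 0 of 8 each. Stromal markers summed to 0.170, 0.120, 2.11 and 0.0400 TPM in replicates 1 to 4.

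By mean TPM the receptor genes lay above the ligand genes, although the ranges of Csf3r and Csf1 overlapped. Csf1r led the 8 genes at 264 ± 58.1 TPM (SD, n = 4), rank 119 of 22028 protein-coding genes by mean TPM. The receptor chains Csf2rb2 at 52.1 ± 14.2, Csf2rb at 41.1 ± 13.8, Csf2ra at 25.3 ± 6.29 and Csf3r at 13.3 ± 6.01 TPM followed. Csf1 was the sole ligand gene above 1 TPM, at 9.36 ± 3.80, and Csf2 and Csf3 lay at or near 0. Without replicate 1 the order of these means was Csf1r at 276, Csf2rb2 at 57.8, Csf2rb at 45.3, Csf2ra at 23.2, Csf3r at 15.9 and Csf1 at 10.8 TPM.

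**Figure D1:**
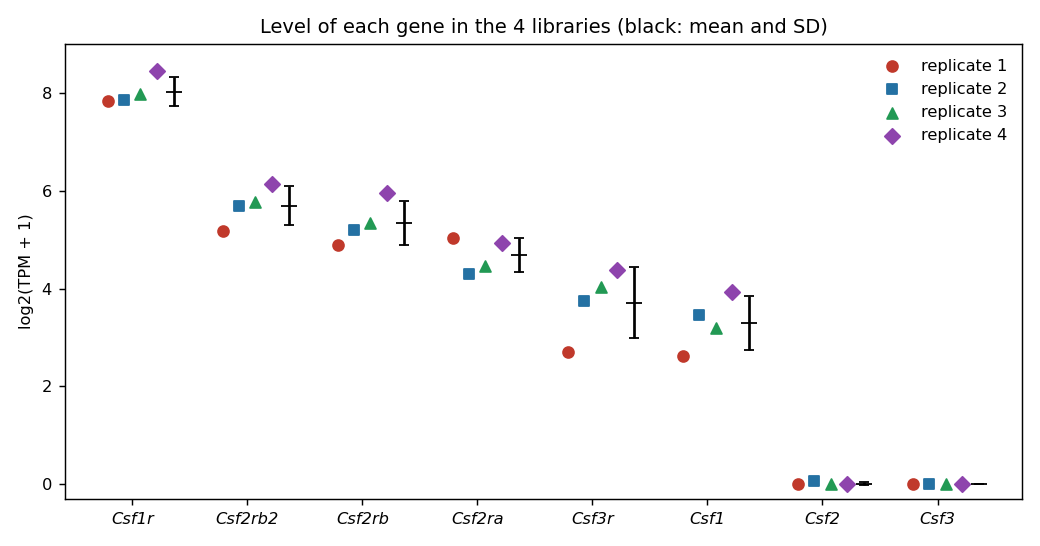
Level of the 8 genes on the log2(TPM + 1) scale, with 1 point per library and, in black, the mean and SD of the 4 libraries. Csf1r lies above all other genes in every library, Csf2 and Csf3 lie at or near 0, and replicate 1 is the lowest library for Csf2rb2, Csf2rb, Csf3r and Csf1 and the highest for Csf2ra.

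Neighbours in this order were compared within each library on the log2(TPM + 1) scale, by an exact two-sided sign-flip permutation over the 4 libraries. A mean difference is as extreme as the observed one in at least 2 of the 16 sign patterns, so no pair could pass a threshold of 0.05, and 7 pairs were compared. Csf1r lay above Csf2rb2 by 2.34 ± 0.23 (SD, n = 4), as extreme in 2 of 16 patterns (exact test, adjusted p = 0.175), and the ranges of the 2 genes did not overlap. Csf1 lay above Csf2 by 3.28 ± 0.54, again with no overlap. The genes between them had overlapping ranges. Csf2ra lay above Csf3r by 0.97 ± 0.91, a difference of 2.33 in replicate 1 and of 0.43 to 0.56 in the others. Csf3r lay above Csf1 by 0.42 ± 0.32, and both pairs kept their direction in 4 of 4 libraries. Csf2rb lay above Csf2ra in 3 of 4 libraries, by 0.66 ± 0.54 on average (exact p = 0.250, adjusted 0.292), and below it in replicate 1.

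Csf1r, the M-CSF receptor, was represented by 42666, 87205, 70552 and 94162 expected counts in replicates 1, 2, 3 and 4. As TMM CPM, which are counts scaled for library depth and composition, these were 1338, 1890, 1879 and 1959. Replicates 2, 3 and 4 thus lay within a coefficient of variation of 2.27%, with replicate 1 below them. In TPM the same libraries read 228, 229, 250 and 350, so on that scale replicate 4 was high and replicate 1 level with replicate 2. The tables quantified directly from reads, called target tables here, gave 168, 124, 100 and 129 TPM, with replicate 1 the highest, and the place of replicate 1 among the libraries therefore depended on the scale. The last bases of Csf1r, a gene on chromosome 18, overlap Hmgxb3 on the opposite strand, and the use of strand in counting was not given in the sources used here. The expected counts of Csf1r and Hmgxb3 were fractional and added up to whole numbers in all 4 libraries (43835, 88646, 71993 and 95804 to 2 decimals). Hmgxb3 held 1169 to 1642 of them.

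The annotated transcripts that carry the complete Csf1r coding sequence are Csf1r-201 and Csf1r-202, each with 2931 coding bases. Together they held 96.2%, 94.0%, 84.9% and 99.4% of the gene's isoform share in replicates 1, 2, 3 and 4. Csf1r-202 runs 1015 bases past the end of Csf1r-201, and 873 of those bases lie within Hmgxb3. It took 46.4%, 75.4%, 66.6% and 53.4% of the gene, while Csf1r-201 took 49.8%, 18.6%, 18.2% and 46.0%. In the target tables Csf1r-202 held 5.49 ± 1.13% and Csf1r-201 64.8 ± 5.99% (SD, n = 4), and the fragment Csf1r-205, a 416-base model with an incomplete coding sequence, held 29.0 ± 7.51%. Which 3′ end of Csf1r prevailed thus depended on the quantification. By isoform share the transcript Csf1r-204, annotated with a retained intron, stayed at or under 0.510% in every library. In the target tables it reached 0.574% in replicate 3 and 1.25% in replicate 4.

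The beta chain genes lie side by side on chromosome 15 of mm10 in opposite directions, Csf2rb2 at 78282507 to 78305721 on the minus strand and Csf2rb at 78325752 to 78353847 on the plus strand. Their leading transcripts in GENCODE M21, Csf2rb-201 and the most abundant transcript of Csf2rb2, are near copies. Over 2631 aligned coding bases 95.2% were identical, with 126 mismatches and 66 gapped columns, and the longest identical stretch ran over 242 bases. Of all 100-base windows of Csf2rb-201, 7.16% also occurred in that of Csf2rb2, and of all 31-base windows 28.9% did. The first 60 coding bases show how alike the genes are, and the ungapped 60-base window with the most mismatches shows where reads can tell them apart. Capitals mark bases that differ between the genes, and each window lies in 1 exon.
Csf2rb-201, coding bases 1 to 60, chr15:78335207-78335266, plus strand: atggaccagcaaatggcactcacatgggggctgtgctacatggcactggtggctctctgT
Csf2rb2, leading transcript, coding bases 1 to 60, chr15:78298170-78298229, minus strand: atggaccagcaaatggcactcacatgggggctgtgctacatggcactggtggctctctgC
Csf2rb-201, coding bases 304 to 363, chr15:78338893-78338952, plus strand: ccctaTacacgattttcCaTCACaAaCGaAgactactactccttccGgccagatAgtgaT
Csf2rb2, leading transcript, coding bases 307 to 366, chr15:78294379-78294438, minus strand: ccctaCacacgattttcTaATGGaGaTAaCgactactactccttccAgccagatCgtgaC
The first window holds 1 mismatch and the other holds 13.

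Csf2rb, the common beta chain, had 6076, 15143, 12853 and 16715 expected counts in replicates 1 to 4, which is 190, 328, 342 and 348 TMM CPM. Csf2rb2, the beta chain of the interleukin 3 receptor, had 7467, 20604, 18169 and 20197, which is 234, 447, 484 and 420 TMM CPM. For both genes replicate 1 was the lowest library in TMM CPM and in the TPM of the gene tables. In the TPM of the target tables it was not, with 23.0, 17.7, 14.7 and 27.3 for Csf2rb and 18.2, 17.5, 14.9 and 20.1 for Csf2rb2. The fractional expected counts of the pair added up to whole numbers in all 4 libraries (13543, 35747, 31022 and 36912 to 2 decimals), so the pair shared reads, and the level of each gene alone is uncertain.

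Csf2rb2 took a nearly constant part of the beta chain RNA, 55.1%, 58.4%, 57.7% and 53.4% of the summed TPM in replicates 1 to 4. On the log2(TPM + 1) scale it lay above Csf2rb by 0.35 ± 0.13 (SD, n = 4), in 4 of 4 libraries and as extreme in 2 of 16 sign patterns. The target tables put it below Csf2rb instead, by a mean difference of -0.19 (exact p = 0.375), and its part was 46.7 ± 3.97% there. When the leading transcripts of the target tables were compared alone, a comparison chosen after seeing the data, that of Csf2rb2 held 56.2 ± 1.81%. In the transcript tables Csf2rb-201 held 93.3 ± 4.27% of Csf2rb and the leading transcript of Csf2rb2 held 95.4 ± 0.944% of its gene. The target tables gave Csf2rb-201 61.5 ± 5.73%, with 12.1 ± 12.8% on the 397-base model Csf2rb-202 and 11.6 ± 5.73% on the 328-base model Csf2rb-203.

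Csf2ra, the alpha chain that gives the GM-CSF receptor its ligand specificity, lies on chromosome 19 at 61223957 to 61228429. It had 1849, 2199, 2105 and 2314 expected counts and 58.0, 47.7, 56.1 and 48.1 TMM CPM in replicates 1 to 4. Unlike the beta chains, it was not low in replicate 1 in TMM CPM, where its coefficient of variation over the 4 libraries was 10.1%. In the TPM of the gene tables that coefficient was 24.9%. The target tables gave 18.7, 6.59, 6.18 and 8.85 TPM, with replicate 1 far above the others. Both beta chains summed exceeded Csf2ra by 2.01 times in TPM in replicate 1 and by 4.59, 4.39 and 4.39 times in replicates 2, 3 and 4. For Csf2rb alone, the chain that GM-CSF uses, these ratios were 0.901, 1.91, 1.86 and 2.05. The coding transcript Csf2ra-201 held 66.3 ± 4.41% of the gene. Transcripts annotated with a retained intron held 26.3%, 16.4%, 13.4% and 21.7%, the largest such part in these tables among the 6 genes that averaged 1 TPM or more. In the target tables Csf2rb exceeded Csf2ra in replicates 3 and 4, with 19.1% and 22.3% against 16.8% and 20.2%. The annotation lists 4 such transcripts for Csf2ra and none for Csf2rb2 or Csf3r, so the ranking rests on it in part.

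Csf3r, the G-CSF receptor, is carried on chromosome 4 at 126024550 to 126044440. It had 707, 3087, 3096 and 3284 expected counts, which is 22.2, 66.9, 82.5 and 68.3 TMM CPM. Replicate 1 lay far below the rest, and the highest library exceeded the lowest by 3.72 times, the widest spread among the 6 genes. The neutrophil markers summed to 31.2, 31.4, 45.4 and 33.8 TPM in replicates 1 to 4, with Ly6g near 0. Of the 6 tested, 5 had negative log2 folds in replicate 1, as Csf3r did, from -0.60 for S100a8 to -1.87 for Ltf, and none of those 5 passed edgeR's test, while Mmp8 was higher. Ltf and Mpo, among those 5, averaged 0.670 and 0.237 TPM, too low to weigh a difference. Ltf had 20, 55, 188 and 34 expected counts in replicates 1 to 4. The median of the list was -1.07, and the part of these markers in the Csf3r difference was not tested. Csf3r-201 and Csf3r-202 share a coding sequence of 2511 bases and differ in their first exons. Csf3r-201 held 71.5%, 68.9%, 67.6% and 65.3% of the gene and Csf3r-202 held 15.6%, 16.2%, 16.1% and 14.1%. The target tables divided the gene more evenly, with 43.8 ± 4.01% on Csf3r-201 and 41.8 ± 2.51% on Csf3r-202, while their sum, 85.6 ± 3.01%, was close to the 83.9 ± 3.25% of the transcript tables.

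Csf1, the gene of M-CSF, lies on chromosome 3 at 107741048 to 107760469 on the minus strand. Its 778, 2933, 2071 and 2919 expected counts gave 24.4, 63.6, 55.2 and 60.7 TMM CPM, with replicate 1 below the range of the others. The target tables gave 2.79, 3.49, 2.40 and 4.94 TPM, with replicate 3 the lowest. Csf1r exceeded its ligand gene by 44.4, 22.9, 30.8 and 24.6 times in TPM. Macrophages are known to depend on M-CSF from outside. These cells also carried its RNA, at a mean of 9.36 TPM, rank 4347 of 22028 protein-coding genes.

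Csf1 transcripts differ in exon 6, which encodes the part of the precursor that is cut to release M-CSF or to attach a sugar chain. The long form keeps all of exon 6, with 1656 coding bases in the transcript, and is annotated with either of a pair of last exons. The short form starts exon 6 at a later site, lacks 885 of those bases (107748285 to 107749169) and is known to give the form that stays on the cell surface. The sequences below show the join, with the last 30 bases of exon 5 (chr3:107750311-107750340, minus strand) in lower case and the first 30 bases of exon 6 in capitals.
Csf1 long form, exon 6 part chr3:107749140-107749169: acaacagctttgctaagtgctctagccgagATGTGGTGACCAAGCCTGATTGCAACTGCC
Csf1 short form, exon 6 part chr3:107748255-107748284: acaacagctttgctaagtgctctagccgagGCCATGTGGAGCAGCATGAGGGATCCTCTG
The long form prevailed in every library. Transcripts with the long exon 6 held 64.5%, 64.4%, 77.7% and 63.6% of Csf1, and the short form held 27.9%, 23.2%, 13.6% and 22.6%. In the target tables the long form held 72.1 ± 11.7% and the short form 9.43 ± 7.83% (SD, n = 4), with a value near 0 in replicate 3. The distal last exon, shared by the short form and the main long form, was in 80.6 ± 1.85% of the gene's RNA, and the proximal one, of the other long form, was in 8.86 ± 1.62%.

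**Figure D2:**
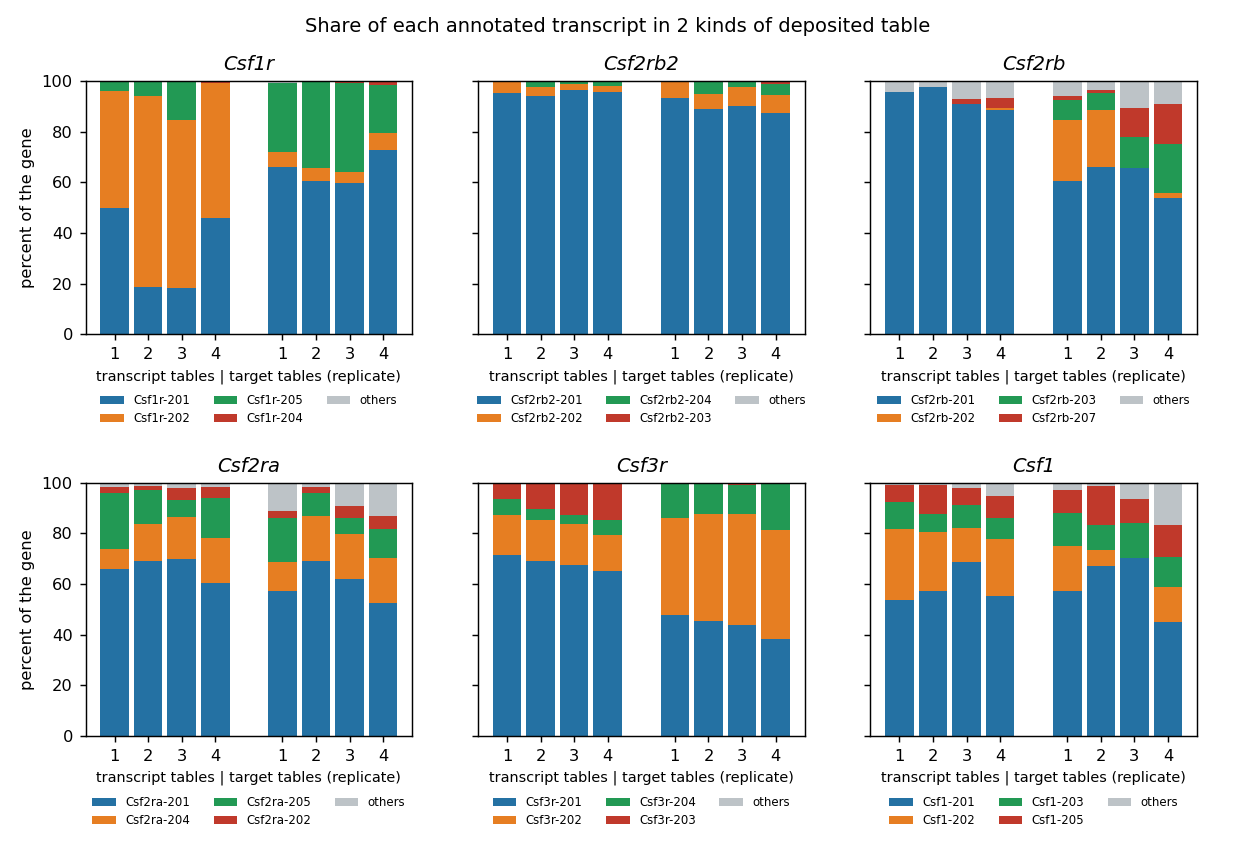
Share of each annotated transcript in the RNA of 6 genes, in percent of the gene, with the 4 libraries of the transcript tables on the left of each panel and those of the target tables on the right. The same transcripts of Csf2rb2, Csf2rb, Csf2ra and Csf1 lead in both kinds of table, whereas Csf1r-202 holds 46.4% to 75.4% in one and 5.49% on average in the other.

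GM-CSF and G-CSF RNA was barely detected. Csf2 (chromosome 11, 54247271 to 54249667) had 2 expected counts in replicate 2 and 0 in replicates 1, 3 and 4. Csf3 (chromosome 11, 98701263 to 98703629) had 0 in all 4 libraries. A count of 0 allows a level of up to 3 counts of a library, which for Csf2 is 0.110 TPM in replicate 1 and for Csf3 is 0.0268 to 0.0529 TPM over the libraries, from counting error alone. The target tables placed 3 and 1 counts on Csf2 in replicates 2 and 3 and 6 counts on Csf3 in replicate 4. Both genes are known to be raised by Toll-like receptor ligands at later times, and their RNA at 15 min was at or under the floor in every library of the gene tables.

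Most of the tested genes of this family were lower in replicate 1. Of the 6 genes tested, 4 were lower in replicate 1 than in the other 3 libraries and 0 were higher, while 1065 of 14041 tested genes (7.58%) were lower. The median log2 fold was -0.84 over the 5 receptor genes and -1.30 for Csf1, the only ligand gene tested, against 0.00 over all tested genes. The other 2 genes, Csf2 and Csf3, had too few counts to be tested. Fewer cells that carry a gene and less of its RNA per cell cannot be told apart in bulk RNA.

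Csf3r showed the largest difference, with a log2 fold of -1.71 ± 0.16 (SE), a level 3.28-fold lower in replicate 1 (edgeR's quasi-likelihood test, Benjamini-Hochberg adjusted p = 0.00479). Csf1 followed at -1.30 ± 0.12, 2.46-fold lower (edgeR adjusted p = 0.00469). Next came the beta chains, Csf2rb2 at -0.95 ± 0.13 and Csf2rb at -0.84 ± 0.11. As these 2 genes share reads, their folds are not independent of each other. The folds of these 4 genes stayed negative under each of 7 alternatives, all of them fitted to counts. In the TPM of the target tables, replicate 1 was the lowest library for Csf3r but not for Csf1, Csf2rb2 or Csf2rb. Csf1r, at -0.52 ± 0.14, did not pass (edgeR adjusted p = 0.0538), although its TMM CPM in replicate 1 lay below that of all other libraries. DESeq2 called it at an adjusted p of 1.86e-07, as did edgeR without replicate 4 at 0.0229, and its adjusted p ranged from 1.86e-07 to 0.359 over the alternatives. Csf2ra had a log2 fold of 0.19 ± 0.12 (edgeR adjusted p = 0.318). For replicates 2, 3 and 4 against the rest, the folds of the 6 genes lay between -0.18 and 0.65. Replicate 1 was part of the rest there, and the SE of Csf3r was 0.72, 0.67 and 0.73. Those contrasts thus could not show whether the 6 genes differed among replicates 2, 3 and 4.

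**Figure D3:**
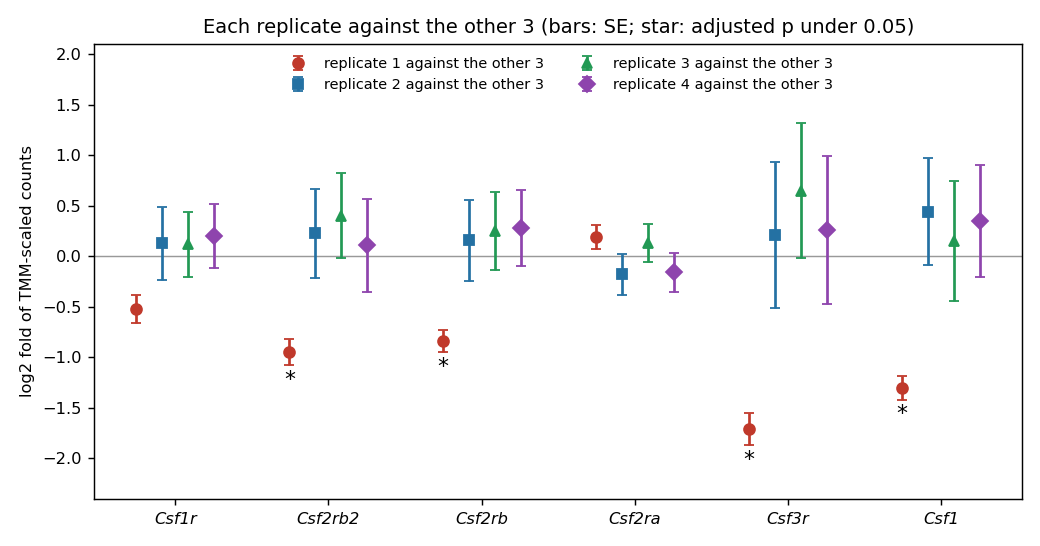
Log2 fold of TMM-scaled counts for each replicate against the other 3, for the 6 tested genes, with bars for the SE and a star for an adjusted p under 0.05 in edgeR's quasi-likelihood test. The stars fall on replicate 1 for Csf2rb2, Csf2rb, Csf3r and Csf1, where the folds are -0.95, -0.84, -1.71 and -1.30.

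On the CPM scale, the spread of most of these genes fell when replicate 1 was left out. The SD of log2 CPM over 4 libraries was 0.86 for Csf3r, 0.65 for Csf1, 0.48 for Csf2rb2, 0.42 for Csf2rb, 0.26 for Csf1r and 0.15 for Csf2ra, against a median of 0.19 over genes averaging at least 100 counts. Without replicate 1 it was 0.17, 0.10, 0.10, 0.04, 0.03 and 0.13 in the same order, against a median of 0.10. Csf1r and Csf2rb were thus the steadiest of the 6 in replicates 2, 3 and 4, and Csf2ra changed little when replicate 1 was left out. In TPM the SD of Csf1r was 58.1 with replicate 1 and 64.8 without it, and that of Csf2rb was 13.8 and 13.5. Variation exceeded counting noise for 6 of 6 genes by the deviance of a Poisson fit, as it did for 82.8% of all tested genes. Without replicate 1 it did so for 6 of 6 again, against 60.1%. Those shares include genes averaging as few as 10 counts, where such variation is harder to detect. They are not matched in depth to the 6 genes.

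Genes that work with these receptors were examined from lists chosen with earlier results of these data known. Among ligands and receptors that share a chain or a receptor with the 8 genes, Il3ra, the interleukin 3 receptor alpha chain, was the only one present. It stood at 12.3, 14.3, 14.6 and 16.6 TPM in replicates 1 to 4, while Il34, Il3, Il5 and Il5ra had 0 counts in every library. The alpha chain of the interleukin 3 receptor was thus on the level of Csf3r, and that of the interleukin 5 receptor was not detected. Of the receptor tyrosine kinases of the Csf1r class and their ligands, the ligand genes Kitl at 2.70 ± 0.627 and Flt3l at 2.18 ± 0.772 TPM exceeded 1 TPM, and the stem cell factor receptor Kit stood at 0.415 ± 0.170. In replicate 1, Kitl had a log2 fold of 0.21 ± 0.12 and Flt3l of -0.50 ± 0.29 (SE). The rest of the 5 tested in that list averaged under 1 TPM, too low to weigh a difference.

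Adaptors, kinases and phosphatases that act below Csf1r were all present, 14 of 14 at an average of 1 TPM or more. The immune adaptor Tyrobp led at 860 ± 173 TPM, followed by the adaptor Grb2 at 105 ± 32.3 and the kinase Syk at 66.9 ± 15.0. In replicate 1, 2 of 14 were higher, 3 were lower and 9 did not pass, with a median log2 fold of -0.07, where 14.5% of all tested genes were higher and 7.58% lower. The phosphoinositide 3-kinase subunit Pik3cg rose most, by a log2 fold of 1.12 ± 0.13, from 10.2, 8.11 and 13.8 TPM in replicates 2 to 4 to 26.6 in replicate 1 (edgeR's quasi-likelihood test, Benjamini-Hochberg adjusted p = 0.00778). Inpp5d, a lipid phosphatase that restrains this pathway, was higher by 0.40. Syk at -0.71, Grb2 at -0.48 and a further phosphoinositide 3-kinase subunit, Pik3cd, at -0.46 were lower.

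The JAK-STAT genes that relay GM-CSF and G-CSF signals included the kinase genes Jak1 at 38.0 ± 7.31 and Pim1 at 25.5 ± 13.1 TPM. In replicate 1, 0 of 12 were higher and 3 were lower, with a median log2 fold of -0.33, beside 14.5% higher and 7.58% lower over all tested genes. Pim1, a known target of STAT5, stood at 12.2, 20.6, 26.0 and 43.1 TPM and had a log2 fold of -1.42 ± 0.19 (edgeR adjusted p = 0.00976). Tyk2 at -0.58 and Stat3 at -0.36 were the other lower genes. Adam17, the protease that sheds the Csf1r ectodomain, stood at 27.1 ± 5.69 TPM and its partner Rhbdf2 at 8.16 ± 1.97, and 0 of 3 shedding genes passed in edgeR's test (median -0.08).

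Transcription factors known to act on the receptor genes were led by Spi1 at 70.8 ± 15.5, Irf8 at 54.0 ± 17.6 and Cebpa at 46.3 ± 7.23 TPM. In replicate 1, Ets2 had a log2 fold of 1.96 ± 0.09 and Irf8 of -1.13 ± 0.11 (SE), the largest in size among the 6 tested. The median of the list was -0.42. Spi1, the myeloid master regulator, differed by -0.13. Irf8 read 32.6 TPM in replicate 1 and 52.5, 54.9 and 75.8 in the others.

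Of 7 tested genes known to be raised by M-CSF, 5 were higher in replicate 1 and 0 were lower, with a median log2 fold of 2.58, where 14.5% of all tested genes were higher. The cyclin gene Ccnd1 stood at 145 TPM in replicate 1 and at 11.3, 12.9 and 11.1 in replicates 2, 3 and 4, a log2 fold of 3.36 ± 0.28 (edgeR adjusted p = 0.00374). Myc, a driver of growth, stood at 18.8 TPM against 1.73, 2.41 and 2.88, a log2 fold of 2.84 ± 0.18 (edgeR adjusted p = 0.00279). The protease gene Plau at 2.62, the chemokine gene Ccl2 at 2.58 and the cyclin gene Ccnd2 at 2.50 were also higher, with no overlap between replicate 1 and the others. Fos and Junb, of the same list, had log2 folds of -0.10 ± 0.63 and -0.47 ± 0.41 (SE). The list was chosen with earlier results of these data known, so its share beside that of all tested genes is not an independent comparison. Whether M-CSF signalling differed between the libraries was not tested.

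**Figure D4:**
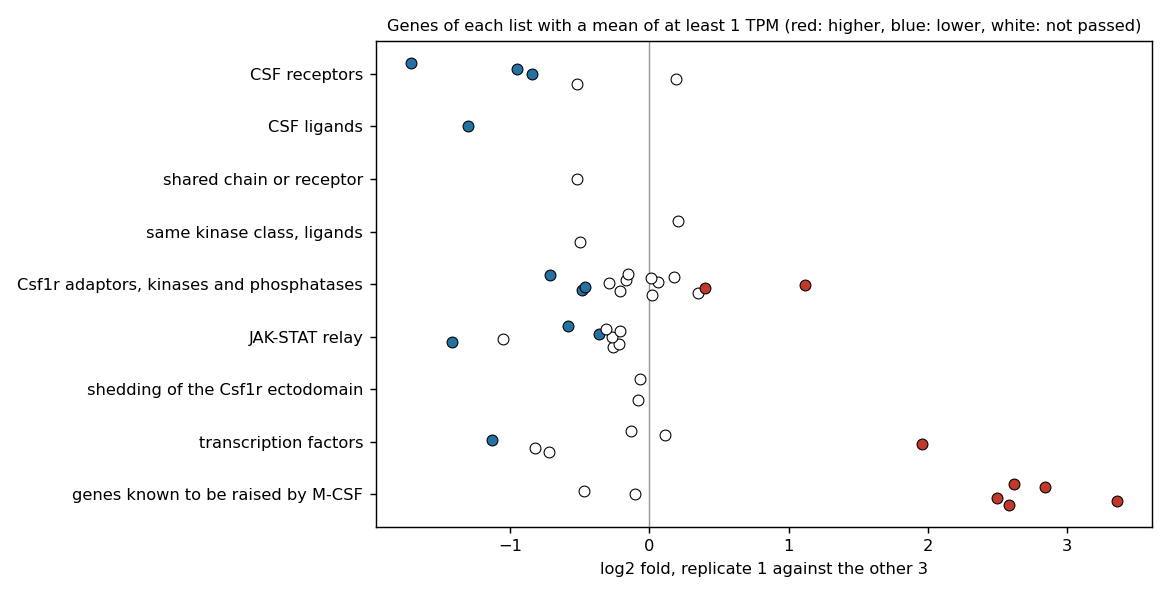
Log2 fold in replicate 1 against the other 3 libraries for the genes of each list that averaged 1 TPM or more, with 1 point per gene, red where higher, blue where lower and white where edgeR's test was not passed. The colony-stimulating factor receptors and Csf1 lie between -1.71 and 0.19, and of 7 genes known to be raised by M-CSF 5 lie between 2.50 and 3.36, with Fos at -0.10 and Junb at -0.47.

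Of 10 macrophage markers tested in replicate 1, 2 were higher (Itgam at 1.02 and C1qa at 1.00 on the log2 scale), 1 was lower (Mertk at -0.81) and 7 did not pass, with a median of -0.15, where 22.0% of all tested genes passed in either direction. Adgre1, the F4/80 antigen, had a log2 fold of 0.01 and Cd68 of -0.16. Among the neutrophil markers 1 of 6 tested passed, Mmp8, which was higher by 0.66, against the negative folds of the other 5 given above (list median -1.07). Of the dendritic, mast cell, and stromal markers tested, 0 of 7, 0 of 1 and 0 of 6 passed in edgeR's test.

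Incompletely spliced Csf2rb RNA set replicates 3 and 4 apart from replicates 1 and 2. Transcripts of Csf2rb annotated with a retained intron held 1.28%, 1.32%, 8.06% and 10.3% of the gene in replicates 1, 2, 3 and 4, and 3.15%, 3.05%, 19.1% and 22.3% in the target tables. In the transcript tables Csf1r-204 held at most 0.0700% in replicates 1 and 2 and 0.310% and 0.510% in replicates 3 and 4. The retained intron transcript of Csf1 read 0%, 0.880%, 1.30% and 3.68% there. Csf2ra did not share this order, since its retained intron transcripts were highest in replicate 1. Over all genes such transcripts held 1.33%, 1.18%, 1.83% and 2.23% of the expected counts. The nuclear noncoding RNA Malat1 stood at 306, 242, 984 and 941 TPM and Neat1 at 35.1, 25.0, 115 and 79.4. Nuclear RNA thus moved with the Csf2rb retained introns across these cytosolic libraries, and its part in them was not tested.

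**Figure D5:**
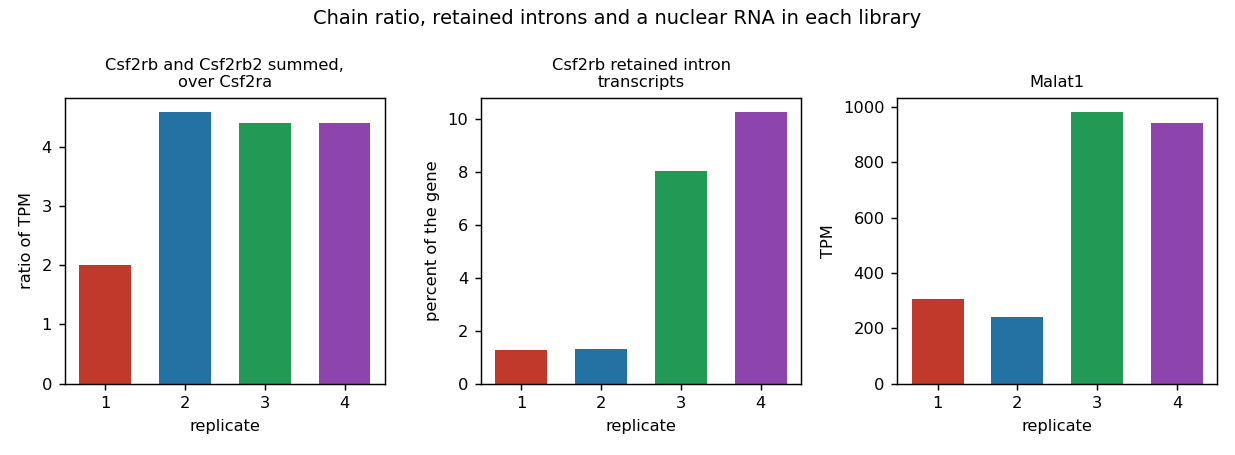
Bars give, for each replicate, the TPM of Csf2rb and Csf2rb2 summed over that of Csf2ra, the percent of Csf2rb in retained intron transcripts, and the TPM of the nuclear RNA Malat1. Replicate 1 is low in the first panel (2.01 against 4.39 to 4.59), and replicates 3 and 4 are high in the others.

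The protein-coding genes whose log2(TPM + 1) over the 4 libraries lay nearest to Csf1r by Euclidean distance were Serpinb6a and Gabarap, each at 0.24, and Rpl28 at 0.42. Serpinb6a read 230, 236, 213 and 344 TPM. Nearest to Csf2rb were Trafd1 at 0.16, Mroh1 at 0.21 and Plk2 at 0.25, and Trafd1 read 26.2, 37.9, 39.5 and 64.0 TPM. Likeness here is of level and order over 4 libraries only.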

How the data were processed

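For each of 4 libraries the authors deposited gene and transcript tables with expected counts, which need not be whole, and TPM, and target tables with estimated counts and TPM, per the file headers. Isoform shares are a deposited percent of each gene's expression. Build mm10 and annotation GENCODE M21 are named in the text beside the files. The aligner, the quantifiers and the use of strand were not given in the sources used here. Features that name no gene held 0.407%, 0.224%, 0.177% and 0.0267% of the counts in replicates 1 to 4 and were left out. The 7SL RNA genes took 57.1% to 63.3% of all TPM, which lowers every other TPM.

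Members were matched by symbol. Expected counts were rounded, genes averaging 10 counts or more entered the tests, and each replicate was set against the remaining 3 in edgeR 4.0.16 (TMM, quasi-likelihood test, Benjamini-Hochberg adjusted p under 0.05) under R 4.3.3. The lone library is taken to vary like the other 3. A Poisson fit's deviance tested for variation beyond counting. The tests were checked on simulated data. Levels were compared by exact sign-flip permutation with a pseudocount of 1 TPM. Alternatives were RLE scaling, no filter, DESeq2 1.42.0, the target tables, leaving out each replicate, a pseudocount of 0.1 and TPM without 7SL genes. Sequences were read from the GENCODE M21 transcripts and aligned with Biopython 1.88. Floors are 3 counts of a library and speak to counting error alone, because reads lacking molecular identifiers need not be separate molecules. All else was done in Python 3.11.15.

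The members and lists were chosen with earlier results of these data known. The rule for named genes takes all 8 members, the 3 most abundant genes of each list, up to 3 called genes of each list with the largest fold, the detected cell type markers, and the 3 protein-coding genes nearest to Csf1r and to Csf2rb. Genes named beyond it were chosen after their values were seen. The values of some list genes are not reported here.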

Additional observations from a re-analysis of the deposited data

Results flagged for a closer look

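In 4 of 28 quantities examined, replicate 1 lay farther from the other 3 libraries than Dixon's 95% critical value for 4 samples allows, where chance gives about 1 in 20. For the TMM CPM of Csf1r the gap to the nearest library was 0.871 of the range (1338 against 1879 to 1959). For the TMM CPM of Csf2rb it was 0.873 (190 against 328 to 348). For the ratio of Csf2rb to Csf2ra in TPM it was 0.835 (0.901 against 1.86 to 2.05), and for both beta chains over Csf2ra it was 0.922 (2.01 against 4.39 to 4.59). Replicate 1 was the low library in each. These quantities share genes and are not independent of each other.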

How the results depend on the processing

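Over all alternatives run, 186 values kept their direction and side of the threshold or stayed within the spread, 23 moved, 2 became called and 1 reversed. The 4 calls in replicate 1 held under RLE scaling, no filter, DESeq2, the target tables and without each other replicate. Genes called for replicate 2 numbered 0 in edgeR, 8 in DESeq2 and 0 to 82 when a replicate was left out, with 82 without replicate 1. For replicate 3 DESeq2 called 3. For replicate 4 DESeq2 called 17, edgeR without a filter called 1, and edgeR called 0 to 1 when a replicate was left out. In the target tables the mean TPM was 130 for Csf1r, 17.7 for Csf2rb2, 20.7 for Csf2rb, 10.1 for Csf2ra, 4.45 for Csf3r and 3.41 for Csf1. Rescaled without the 7SL genes it was 654, 130, 102, 62.2, 33.1 and 23.3. Leading transcripts held other shares in the target tables, 5.49% for Csf1r-202, 89.8% for that of Csf2rb2, 61.5% for Csf2rb-201, 60.2% for Csf2ra-201 and 43.8% for Csf3r-201. The difference of Csf2rb2 over Csf2rb reversed to -0.19 there. The cause was not tested. No paired analysis was possible because the libraries form 1 group. Csf2 and Csf3 rest on too few counts for any comparison.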
